A study of Mus musculus with 11 samples.

Results

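Mterf4, Rbbp6, Syncrip and Vps18 are 4 of 1829 genes in a deposited table of significant genes, and each had at least 1 transcript with a higher mean after ATP and 1 with a lower mean. They were chosen by the direction of these means, so the direction and size of each difference are a description and no test was made. In all, 11 genes of the table had transcripts in both directions, and on what grounds these 4 were picked among the 11 is not known. Together they hold 9 of the 2071 transcripts of that table, and a further 5 transcripts of Syncrip stand in another table. Primary enteric glial cell cultures (msEGCs), grown from the small bowel muscle layer of adult BL6 mice, were treated with 100 µM ATP for 6 h (6 libraries) or left untreated (5 libraries). The protocol label names ATP for all 11 libraries, so the groups were taken from the titles. Glia were expanded as neurospheres and then differentiated, and the sources do not say whether libraries of a group came from separate animals. The deposited tables give 1 mean per group and no value per library, so no spread, error or depth per library can be stated for any value below.

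Many genes make several mRNAs that differ in their exons or in the site where the RNA is cut and given its poly(A) tail. A gene can therefore keep much the same amount of RNA while the mix of its transcripts differs. The libraries were made with a 3′ mRNA-Seq kit, which primes on the poly(A) tail with oligo(dT) and reads the last exon and 3′ untranslated region. Such a read can tell transcripts apart only where the sequences near their 3′ ends differ. It cannot do so where they share an end and differ further upstream. A separate end alone is not enough, since the same sequence can lie inside another transcript.

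The roles of the 4 proteins are known and differ. MTERF4 is a mitochondrial protein that works with the RNA methyltransferase NSUN4 in building the large subunit of the mitochondrial ribosome. RBBP6 is a RING-type ubiquitin ligase that binds p53 and retinoblastoma protein and also acts in the cleavage of pre-mRNA before polyadenylation. SYNCRIP, also called hnRNP Q, is an RNA-binding protein of mRNA stability, translation and transport. VPS18 is a core subunit of HOPS and CORVET, the complexes that tether endosomes and lysosomes before they fuse.

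In GENCODE M21 (mouse, GRCm38), Mterf4 spans bases 93299211 to 93305915 of chromosome 1 (minus strand). Rbbp6 spans bases 122965686 to 123002557 of chromosome 7 (plus strand), Syncrip bases 88447009 to 88482574 of chromosome 9 (minus strand) and Vps18 bases 119288740 to 119298453 of chromosome 2 (plus strand). The genome build and annotation of the authors were not given in the sources used here. Their transcript names, such as Mterf4-001, follow another numbering, and 0 of the 14 names of these genes are found in GENCODE M21. No deposited transcript could thus be placed on an annotated one, and the annotation is used only to show what kinds of 3′ ends these genes have.

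The annotated 3′ ends are shown first because they decide what a 3′ read can separate. The last 30 bases of 6 annotated transcripts are given as RNA-sense DNA, with the letters of a polyadenylation hexamer in capitals (AATAAA or ATTAAA, searched on the transcript strand only). The letters were matched anywhere in this window, and whether they act as a signal was not tested. In Vps18-203 they lie 1 base before the end, against 12 to 20 bases in the other printed ends. These are GENCODE M21 ends with a hexamer, and the other Rbbp6 ends are not printed.
Rbbp6-203: atttaaaattaaAATAAAgtgttaaaactg
Syncrip-203: aaagAATAAAgttgttctctttaaaaaatc
Syncrip-207: tatttttgtAATAAAgtttttatttttttt
Syncrip-208: tcctgcaAATAAAattgttttatactgtaa
Syncrip-211: taccttAATAAAccattttagtatgttgta
Vps18-203: cagcaaaggctagaaaaaattaaATTAAAt
Of the 30 annotated transcripts of the 4 genes, 9 had a hexamer in their last 30 bases, against 29.6% of all 141767 annotated transcripts. None of the 5 Mterf4 transcripts had these letters in that window.

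Rbbp6 has coding transcripts with ends far apart. Rbbp6-201, with 1790 codons, and Rbbp6-202, with 1756 codons, end at the same base of chromosome 7, 123002557. Rbbp6-203 has 123 codons and ends at 122984392, which is 18165 bases further upstream, behind its own hexamer. All 251 of the 50-base reads that can be taken from its last 300 bases occur in no other Rbbp6 transcript. By contrast, 0 of the 251 reads from the end of Rbbp6-201 or of Rbbp6-202 are unique, since the same sequences lie in other Rbbp6 transcripts. A 3′ read can therefore separate Rbbp6-203 from Rbbp6-201 and Rbbp6-202 and cannot separate these from each other.

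In Vps18, the only protein-coding transcript, Vps18-201 (973 codons), and the non-coding Vps18-203 end 127 bases apart. Vps18-203 has 0 unique reads of 251 and Vps18-201 has 127. In Mterf4, all 3 coding transcripts have 3′ ends at least 500 bases from each other, and both Mterf4-202 and Mterf4-203 have 251 unique reads of 251, while Mterf4-201 has 0 in its last 300 bases and 42 of 451 in its last 500. Syncrip has 12 annotated transcripts, of which 8 have no unique 50-base read in their last 300 bases. Syncrip-207 and Syncrip-208, whose ends are printed above, end at bases 88452640 and 88452689 of chromosome 9 and have 0 unique reads each.

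**Figure D1:**
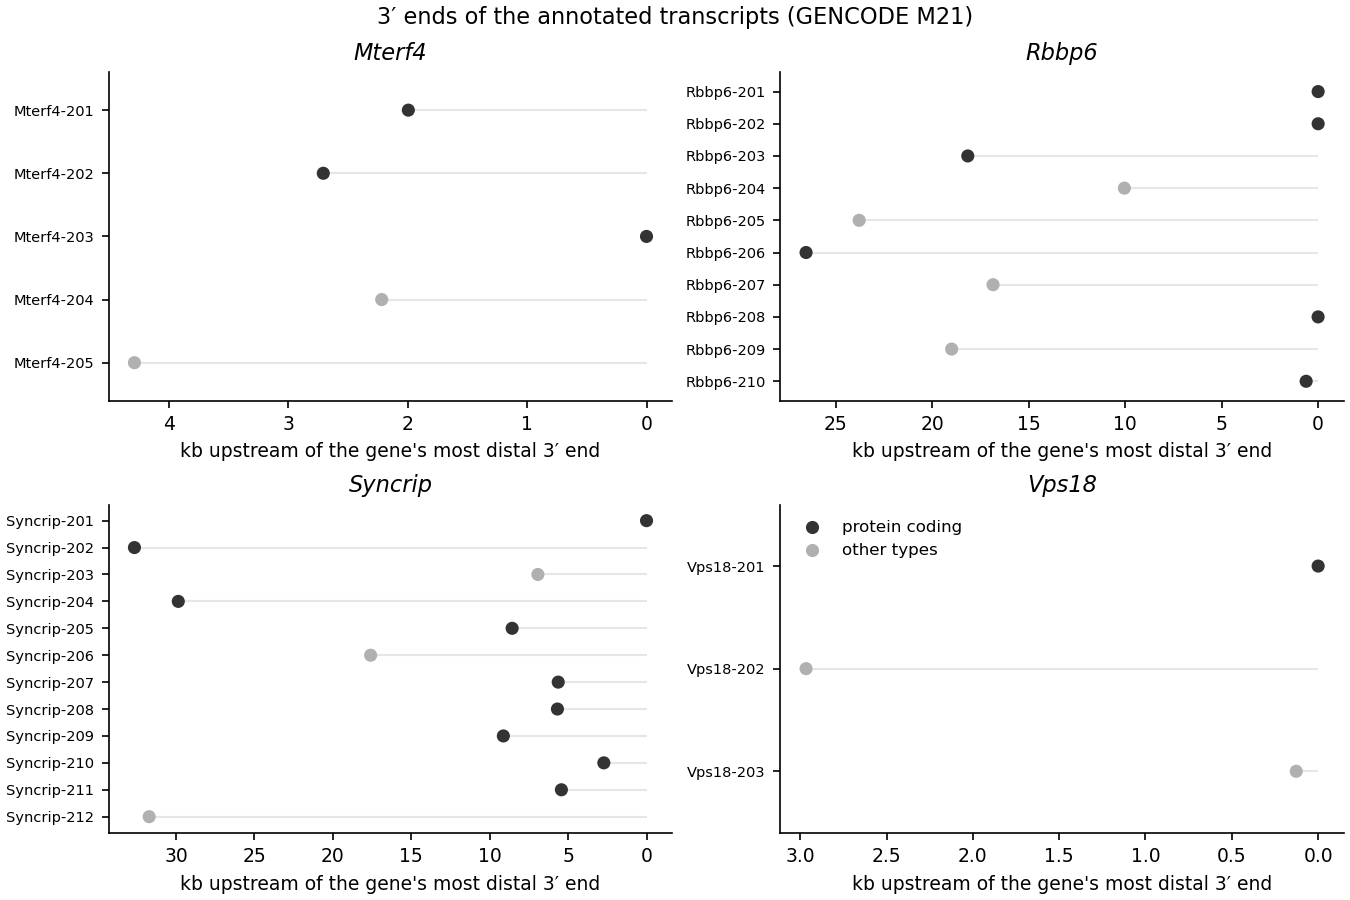
Position of the 3′ end of each annotated transcript (rows, GENCODE M21 names), in kb upstream of the most distal end of its gene, with protein-coding transcripts in black and other types in grey. The short Rbbp6-203 ends 18165 bases before Rbbp6-201 and Rbbp6-202, while Vps18-201 and Vps18-203 end 127 bases apart.

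Among the 9 transcripts, 5 had a higher and 4 a lower mean after ATP. Over all rows of the table of significant genes, 47.8% were higher and 52.2% lower, and since the choice of genes needed both directions, nothing is read from the count of 5 and 4. A ratio (ATP mean over control mean) of at least 2 was found for 5 of the 9, against 20.4% of all rows, and a ratio of at most 1/2 for 1 of the 9, against 32.9% of all rows. These shares are given as a description. How reads shared by several transcripts were divided among them is not given. A difference between transcripts of a gene can therefore rest on that division, which was not tested. The values are the authors' means, which appear to be scaled for library depth. By the 49 transcripts that also stand in a table that appears unscaled, 1 unit equals about 11.7 estimated counts per ATP library and 10.1 per control library.

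**Figure D2:**
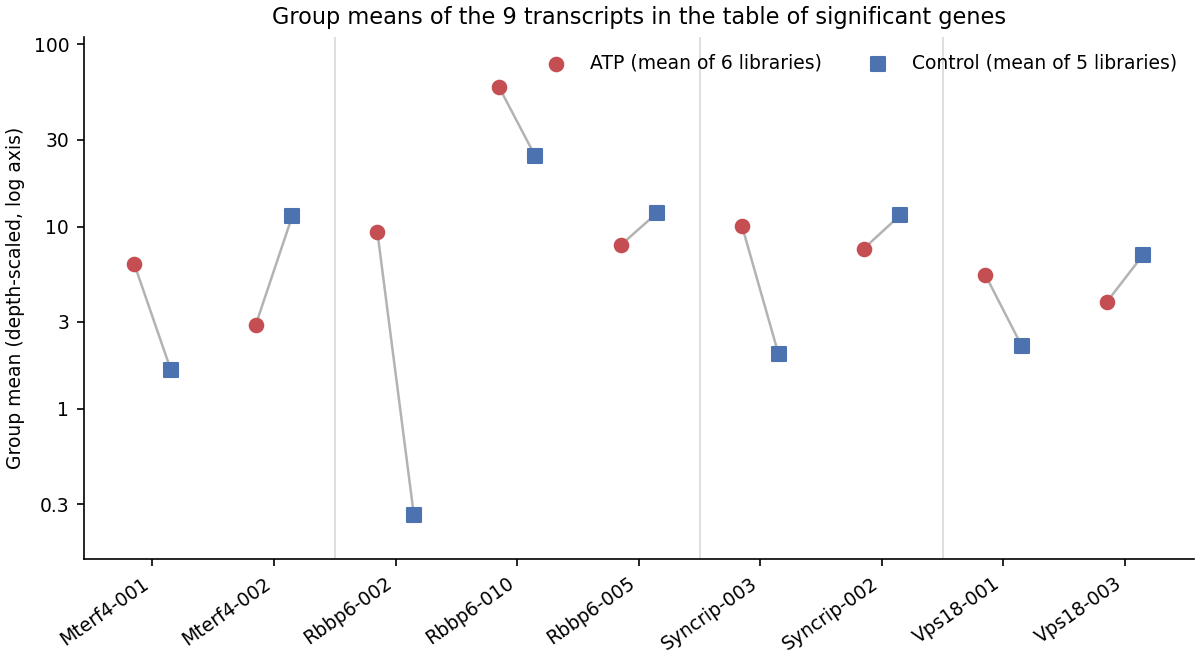
Authors' group means (depth-scaled, log axis) of the 9 transcripts, with ATP as circles on the left and control as squares on the right of each name, and no error bars because no value per library was used. Each gene has a line that falls and a line that climbs from ATP to control, and Rbbp6-002 has the widest gap, with means of 9.33 after ATP and 0.262 in control cells.

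Of the 4 genes, Mterf4 had the largest difference in transcript shares between the groups. The mean of Mterf4-001 was 6.24 after ATP and 1.65 in control msEGCs, a ratio of 3.80. Mterf4-002 showed the opposite, with 2.90 after ATP and 11.4 in control cells, a ratio of 0.254, which is 3.94-fold lower. Mterf4-001 thus made up 68.3% of the 2 listed transcripts after ATP and 12.6% in control cells. The summed mean of the gene was 9.15 after ATP and 13.1 in control cells (ratio 0.70), because the difference in Mterf4-001 (4.60) was 53.8% of that in Mterf4-002 (8.54, in the other direction). With 1 added to both means, the ratio of Mterf4-001 is 2.74 and Mterf4-002 is 3.19-fold lower.

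Rbbp6 had 3 rows, of which 2 were higher and 1 lower after ATP. Rbbp6-010 carried most of the signal, with 58.3 after ATP and 24.3 in control cells (ratio 2.40). Rbbp6-002 had 9.33 after ATP against 0.262 in control cells, a ratio of 35.6, the third highest of 2071 rows. Its control mean is the second lowest of all rows and corresponds to about 2.65 estimated counts per control library, so this ratio depends strongly on a pseudocount: with 1 added to both means it is 8.18, and with 5 added it is 2.72. Rbbp6-005 lay on the other side, with 7.90 after ATP and 11.9 in control cells (1.504-fold lower).

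Over the 3 rows, Rbbp6 summed to 75.6 after ATP and 36.4 in control cells, a ratio of 2.08, or 1.83 without Rbbp6-002. The difference in the lower transcript was 9.23% of that in the higher ones combined. Rbbp6-005 made up 10.5% of the summed mean after ATP and 32.6% in control cells, while Rbbp6-010 had 77.2% after ATP and 66.6% in control cells. The share of Rbbp6-002 was 12.3% after ATP and 0.721% in control cells. Summed over its 3 listed rows, Rbbp6 was therefore higher, with a single listed row lower. Transcripts outside these rows are not covered.

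For Syncrip, the table of significant genes lists Syncrip-003, with 10.04 after ATP and 1.99 in control cells (ratio 5.04), and Syncrip-002, with 7.56 after ATP and 11.6 in control cells (1.53-fold lower). Their sum was 17.6 after ATP and 13.6 in control cells, a ratio of 1.30. Syncrip-003 made up 57.0% of this pair after ATP and 14.7% in control cells. On these 2 rows alone, the mix of Syncrip transcripts looks reversed between the groups.

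Syncrip is the only one of the 4 genes with further transcripts in another deposited table, that of the response to cytokine, where 7 transcripts numbered 001 to 007 are listed. The pair above held only 16.2% of the Syncrip signal after ATP and 14.7% in control cells. Syncrip-004 was the most abundant, with 39.4 after ATP and 35.3 in control cells (ratio 1.12). It was followed in ATP-treated cells by Syncrip-005, with 25.3 after ATP and 15.1 in control cells (ratio 1.68), and by Syncrip-007, with 14.8 after ATP and 17.0 in control cells (ratio 0.87).

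Syncrip-001 had nearly equal means, 8.24 after ATP and 8.49 in control cells, and Syncrip-006 had 3.29 after ATP and 2.75 in control cells. Summed over all 7, Syncrip had 109 after ATP and 92.3 in control cells, a ratio of 1.18. Syncrip-003 then made up 9.23% of the gene after ATP and 2.16% in control cells, and Syncrip-002 6.96% after ATP and 12.5% in control cells. The difference in transcript shares between the groups came to 42.3 percentage points on the listed pair and to 14.03 percentage points on all 7. For the other 3 genes, transcripts outside the table of significant genes were not analysed here, so their shares and sums cover the listed rows alone.

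**Figure D3:**
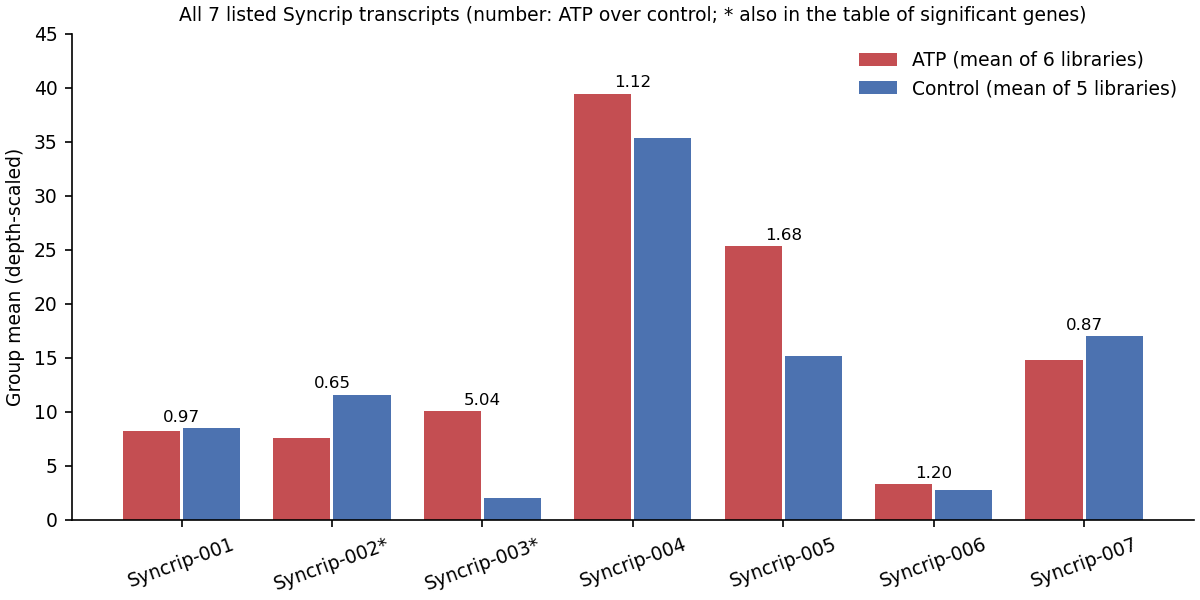
Authors' group means (depth-scaled) of the 7 Syncrip transcripts, ATP left and control right, with the ratio of ATP over control above each pair and an asterisk on those in the table of significant genes. The listed pair is small beside Syncrip-004, whose means were 39.4 after ATP and 35.3 in control cells.

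In Vps18 the opposite differences were the most equal of the 4 genes. The mean of Vps18-001 was 5.44 after ATP and 2.22 in control cells (ratio 2.46), while that of Vps18-003 was 3.86 after ATP and 7.03 in control cells (1.82-fold lower). The difference in Vps18-003 (3.17) was 98.1% of that in Vps18-001 (3.23). The summed mean was 9.31 after ATP and 9.24 in control cells, a ratio of 1.01, so the gene as a whole showed almost no difference in the listed rows. Vps18-001 made up 58.5% of it after ATP and 24.0% in control cells. Of the 9 transcripts, Vps18-001 had the smallest total over all libraries, 43.7 depth-scaled units, against a median of 127 for all rows.

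**Figure D4:**
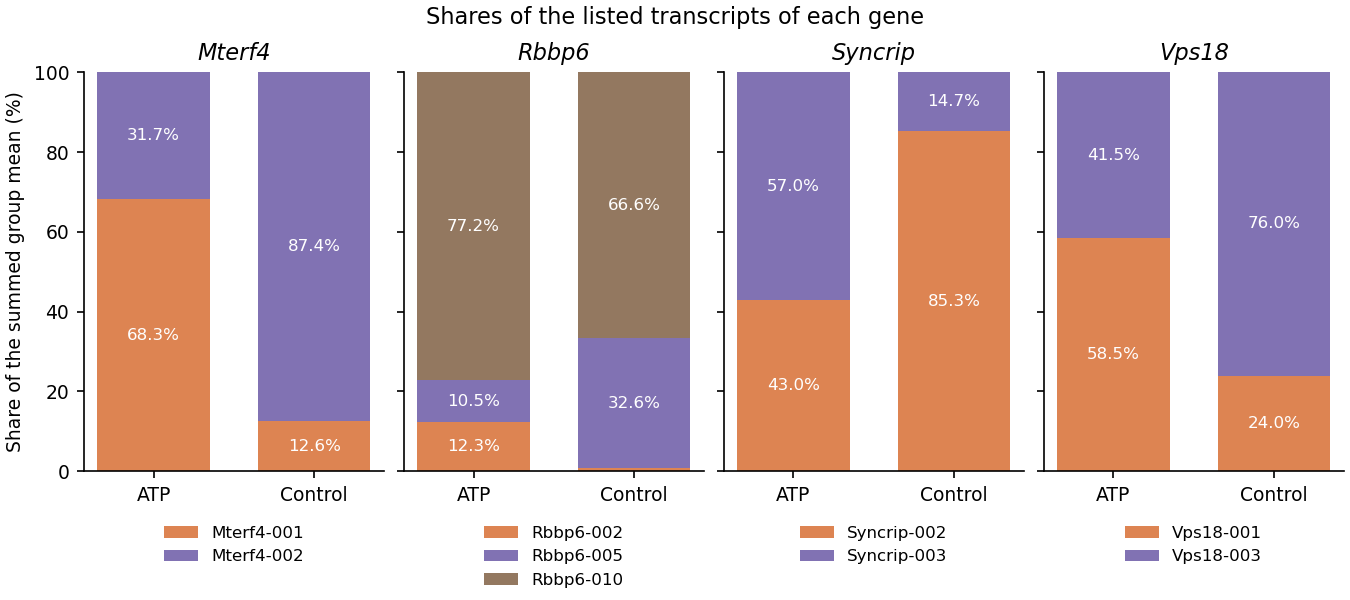
Share of each listed transcript in the summed group mean of its gene (%), with the ATP bar left of the control bar in each panel. The larger share lies with a different listed transcript in each group for Mterf4, Syncrip and Vps18. In Rbbp6 the transcript Rbbp6-010 holds 77.2% after ATP and 66.6% in control cells.

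The ratio of a higher over a lower transcript of the same gene, each as ATP over control, does not depend on any factor that multiplies all transcripts of a group mean alike. This ratio of ratios was 53.5 for Rbbp6-002 over Rbbp6-005 (11.8 with a pseudocount of 1) and 14.95 for Mterf4-001 over Mterf4-002 (8.73 with a pseudocount of 1). It was 7.70 for Syncrip-003 over Syncrip-002 (5.41 with the pseudocount), 4.47 for Vps18-001 over Vps18-003 (3.31) and 3.62 for Rbbp6-010 over Rbbp6-005 (3.40). Rbbp6-002 and Mterf4 stayed ahead of the other pairs with the pseudocount, while the Vps18 pair fell below that of Rbbp6-010. Rbbp6-005 and Syncrip-002, the lower transcripts of their genes, lay close to the limit of the table, in which 0 rows have a ratio between 1/1.5 and 1.5. Their ratios were 0.665 and 0.654, and the highest ratio of any lower row was 0.666.

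Of 204 genes with at least 2 rows in the table of significant genes, 11 had transcripts in both directions, which is 5.39%. Besides the 4 genes described here, these included Celf1, Fbxo3, Nudt21, Snapc3, Wnk1 and l7Rn6. Of the genes with rows in a single direction, 82 had all listed transcripts higher and 111 had all lower. The difference in transcript shares was 55.7 percentage points for Mterf4, 42.3 for Syncrip, 34.5 for Vps18 and 22.2 for Rbbp6. For the genes with rows in a single direction it had a median of 1.46 and was 18.9 at most. Rows in opposite directions shift the shares by themselves, so this gap follows from how the 4 genes were chosen and is a description. Mterf4 had the highest value of all 204 genes. Vps18 had the summed ratio nearest to 1 of the 11, and Rbbp6 the one farthest from it.

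**Figure D5:**
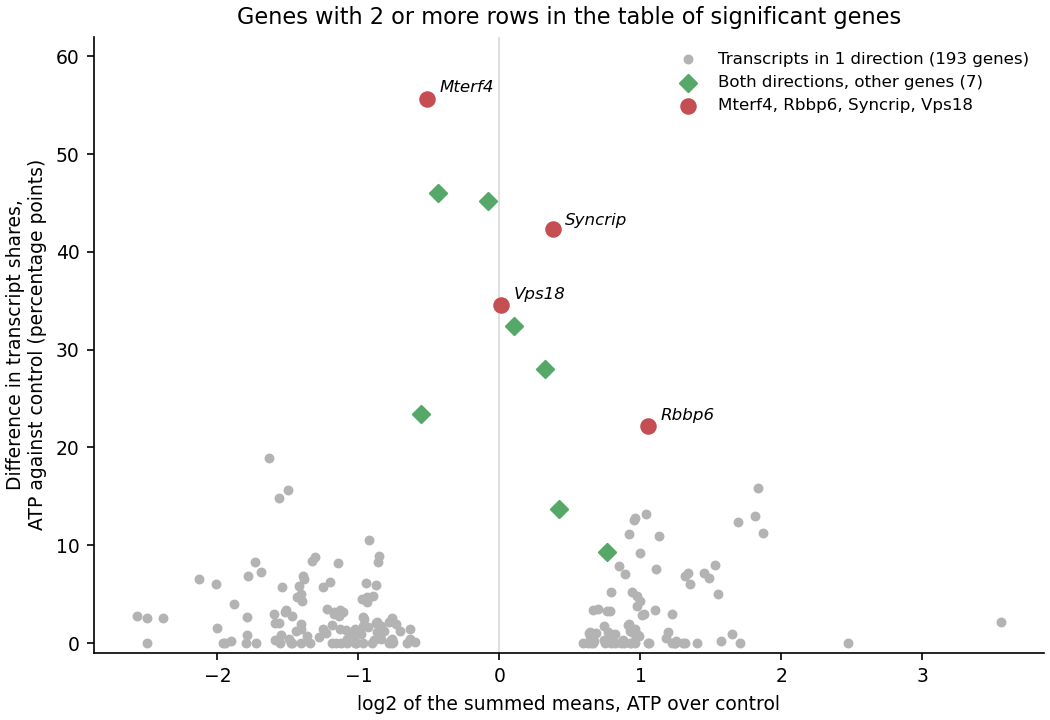
Each point is a gene with 2 or more rows in the table of significant genes (204 genes), with the log2 of its summed means, ATP over control, on the x axis and the difference in transcript shares (percentage points) on the y axis. Mterf4 lies highest at 55.7, and Vps18 lies at a log2 ratio of 0.01.

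The 3 pathway tables (cytokine response, motility and MAPK cascade) also list transcripts that are not in the table of significant genes, 267 of 574, and so show such genes more fully. Among 143 genes with at least 2 transcripts there, 14 (9.79%) had transcripts at 1.5-fold or more in both directions, and Syncrip was 1 of them. With any difference counted, 52 genes (36.4%) had transcripts in both directions. Unlike the share given above, neither count asks that a transcript be in the table of significant genes. The summed ratio of the 14 genes ranged from 0.69 to 1.70. The difference in transcript shares of Syncrip, 14.03 percentage points, ranked 26 of the 143 genes, whose median was 6.07.

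Of 21 other factors of mRNA cleavage and polyadenylation, the process in which RBBP6 acts, 8 had rows in the table of significant genes and 13 had none. The deposited data do not say how many genes were measured in all. The paper gives rounded percentages of the glial transcriptome for a larger set of called genes and states no total. The share of all genes with a row is thus not set beside this count or those of the lists below. Nothing is read from the counts of genes with a row. These 8 genes had 10 transcripts higher and 1 lower, with a median ratio of 1.76, against 47.8% of all rows higher and a median ratio of 0.644 over all rows. As 0 rows have a ratio between 1/1.5 and 1.5, the side on which a median falls follows from the counts of higher and lower rows. The medians are thus no separate measure of size. Pabpn1-009, for the nuclear poly(A)-binding protein, had 67.4 after ATP and 34.7 in control cells (ratio 1.94). Pcf11-001, for a cleavage factor that binds RNA polymerase II, had 31.9 after ATP and 19.0 in control cells (ratio 1.68). Nudt21, for the small subunit of cleavage factor I, which helps to choose the poly(A) site, was itself in both directions. Its transcript Nudt21-001 had 42.5 after ATP and 21.4 in control cells (ratio 1.99), and Nudt21-004 had 13.8 after ATP and 23.6 in control cells (1.71-fold lower). The list was chosen with earlier results of these data known, so its count is a description.

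Of 25 other hnRNP and related RNA-binding proteins, the family of SYNCRIP, 5 had rows, with 5 transcripts higher and 1 lower and a median ratio of 1.74. Over all rows, 47.8% were higher. This list and those below were also chosen with earlier results of these data known, so their counts are a description. The lower hnRNP transcript was Hnrnpr-007, of the closest relative of Syncrip, with 3.60 after ATP and 7.04 in control cells (1.95-fold lower). Hnrnpm-008 had 92.2 after ATP and 54.9 in control cells (ratio 1.68), and Hnrnpdl-001 had 59.4 after ATP and 33.1 in control cells (ratio 1.80). Of 19 genes of mitochondrial transcription and ribosome assembly, the field of MTERF4, only Lrpprc had a row, with 51.8 after ATP and 22.4 in control cells (ratio 2.31). None of 12 genes for the partners of VPS18 in HOPS and CORVET and their Rab proteins had a row. A gene without a row has no value here, and can have been unchanged, undetected or left out.

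The label of the cultures could be checked only in part. Of 7 enteric glia markers, Gfap alone had a row in any table, and its 2 transcripts are the only rows whose total does not match the group means. Both totals match when the means of ATP and control are exchanged, so no direction is given for Gfap. Of 5 enteric neuron markers, Uchl1 and Ret had rows among the significant genes, and their listed transcripts summed to 169 after ATP and 90.8 in control cells. Of 5 fibroblast markers, Col1a2-003 was listed there with 2.06 after ATP and 8.18 in control cells, and Dcn-202 stood in the gliosis table with 22518 estimated counts after ATP and 51612 in control cells. Of 5 macrophage markers, Cd68 had a row in the gliosis table with 43.05 estimated counts after ATP and 22.6 in control cells, and the 5 smooth muscle and 3 endothelial markers had none. No defining marker was listed at 0, and most had no row. The part of these markers in the transcript differences was not tested, and in such bulk RNA fewer cells of a type and less RNA per cell cannot be told apart. Library codes in the labels fall into 3 series, of which 1 holds 3 ATP libraries alone, 1 holds 2 control libraries alone and 1 holds 3 libraries of each group, so that series and treatment cannot be told apart in the group means.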

How the data were processed

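RNA of 11 msEGC libraries was sequenced by 3′ mRNA-Seq (single-end 50 bp), and Partek is named in the submitters' processing notes. The aligner, the build, the annotation and the way reads were divided among transcripts were not given in the sources used here. Of 6 deposited tables, 4 hold a signal per transcript that the authors appear to have scaled for library depth, and 1, the gliosis table, holds expected counts that the authors appear to have left unscaled. Both readings come from the values. Further columns hold the authors' p-values, adjusted p-values, ratios and fold changes, and the sixth table their GO enrichment, and none of these was used.

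From the authors' group means, ratios, shares within a gene and sums were computed (Python 3.11.15, pandas 2.3.3). A 3′ kit yields 1 read per transcript, so means were not divided by length. In all 9 rows of the members, the total was the sum of each group mean times its number of libraries (6 and 5), to a relative difference under 1e-06. Without values per library, no test, error, depth per library or left-out library was possible. Ends at least 500 bases apart in GENCODE M21 were counted as separate. The code that counts genes in both directions was run on simulated data with known answers, which is a check of the code and not a test of the data. The genes named are every listed transcript of the 4 genes, the other genes in both directions and the leading members by total of each list, apart from items that are not reported here. Members and lists were chosen with earlier results of these data known.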

Additional observations from a re-analysis of the deposited data

How the results depend on the processing

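The depth factor is the median of 1.16 (range 0.977 to 1.27 over 49 transcripts) by which ratios are larger in the unscaled gliosis table. In the table of significant genes, 0 rows have a ratio between 1/1.5 and 1.5. A factor of this size thus cannot turn the direction of any of the 9 transcripts. With it, Rbbp6-005 was 1.30-fold lower and Syncrip-002 1.32-fold lower, both inside that limit. A pseudocount added to both means cannot turn a direction either, so it bears on the size of a ratio alone. No spread between libraries was available, so every changed sum and count of genes is given. Summed ratios with the depth factor were 0.81 for Mterf4, 2.40 for Rbbp6, 1.503 for Syncrip and 1.17 for Vps18, and with a pseudocount of 1 they were 0.72, 2.05, 1.28 and 1.01 in the same order. Over all transcripts of any table, Syncrip was at 1.18, and the other 3 genes had no further rows. Among the Syncrip transcripts outside the table of significant genes, the depth factor did turn directions. The ratio of Syncrip-007 went from 0.87 to 1.01 and that of Syncrip-001 from 0.97 to 1.12. Without Rbbp6-002, an alternative chosen after seeing the data, Rbbp6 was at 1.83. A minimum group mean of 5 removed no transcript of the 4 genes. Of the 11 genes with transcripts in both directions, 10 were left at that minimum, while a ratio of at least 2 each way left 3, Mterf4, Fbxo3 and Snapc3. All 11 were left with the depth factor, which cannot turn a row of the table of significant genes. Mterf4 has 3 separate 3′ ends at a distance of 500 bases and 5 at 200 or 50 bases. With windows of 500 in place of 300 bases, chosen after seeing the data, 7 Syncrip transcripts had no unique read. No paired analysis was possible because the tables hold no value per library. Leaving out a library could not be run for the same reason.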
